A study of Prunus persica with 9 samples.

Results

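PpPep2 is a plant elicitor peptide of peach, a small peptide that plant cells perceive as a sign of damage and that sets off pattern-triggered immunity. The early response of peach miRNAs to it was described from the normalized counts of annotated pre_miRNA genes in leaf small RNA libraries, by comparing 3 libraries taken 1 h after a spray of 1 µM PpPep2 with 3 control libraries taken at t0. Of 210 pre_miRNA genes listed, 135 had a mean of at least 5 normalized counts over the 9 libraries of the series and were tested, and the remaining 3 libraries, 24 h after the same spray, were used to see which differences were early only. The plants of every group were juvenile Prunus persica var. Big Top plants of in vitro origin, which were potted and kept in a glasshouse before and during treatment, and each replicate pooled the leaves of several plants. The sample labels name the controls mock and the study names them untreated. No control was taken at 1 h, so an effect of PpPep2 within the first hour cannot be told apart from an effect of time of day, spraying or handling. Of the genes tested, 33 in 18 families carry a miRNA name given by the study, which chose them for differences in these same samples, so their number and direction are not independent evidence. The other 102 are given by their identifiers.

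Plant miRNAs are cut from hairpin precursors by DICER-LIKE1 and loaded into ARGONAUTE proteins, where they pair along nearly their whole length with target mRNAs and lead to cleavage or reduced translation. Most conserved families act on transcription factors of growth and phase change, and others act on auxin response factors, on the silencing machinery itself, on disease resistance genes or on sulfate assimilation. Several families have many loci in the genome, and loci with the same mature miRNA cannot be separated by reads of the mature miRNA alone.

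The mature miRNAs that the 1 h values turned on are printed 5′ to 3′ as the study lists them, with bases 2 to 8, which are called the seed here, in capitals. They show which of the named genes share a product and which differ by single bases. The genes without a name had no sequence here, so sharing with them could not be checked. A sum over named genes may therefore not hold all loci of a miRNA.
miR535a-5p: uGACAACGagagagagcacgc
miR535b-5p: uGACGACGagagagagcacgc
miR156g-5p and miR156h-5p: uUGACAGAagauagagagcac
miR166e-3p: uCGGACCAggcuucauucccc
miR530-5p: uCUGCAUUugcaccugcaccu
miR171a-3p and miR171c-5p: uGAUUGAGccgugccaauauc
miR167a-5p: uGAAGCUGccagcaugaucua
miR7122a-5p: uUAUACAAugaaaucacggccg
miR7122b-5p: uUAUACAAugaaaucacggucg
miR395a-3p: cUGAAGUGuuuggggggaccc
miR395c-3p and 7 more miR395-3p: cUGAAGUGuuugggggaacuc
The miR535 sequences differed by A5G, counted from 1 at the 5′ end with the base of miR535a first, so their seeds were not the same. The miR7122 5p sequences differed by C20U and shared the seed UAUACAA. The 9 miR395 3p sequences shared the seed UGAAGUG, and miR395a differed from the other 8 by G17A and C20U. Among the 39 mature sequences listed for the 33 named genes, 29 were distinct.

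Within each library the low values were whole multiples of a fixed step, which was taken as the worth of 1 read, and the total divided by that step gave the depth on pre_miRNA genes. The depth was 115516 to 546690 reads at t0, 224968 to 338604 reads at 1 h and 138929 to 292378 reads at 24 h. A value of 3 reads, taken as the floor, was worth 1.46 to 8.53 normalized counts, highest in t0 replicate 2, and it covers counting error only. Replicate 1 at 1 h stood apart. Its median absolute difference from the mean of the other 1 h libraries was 0.53 on the log2 scale, against 0.25 to 0.41 for the other 8 libraries against their own groups. The gene with the highest counts, ENSRNA049996936, took 14.5% of the counts in that library, 28.7% and 26.8% in the other 1 h libraries and 15.0% to 20.9% at t0. Results that rest on 1 h replicate 1 are therefore given with and without it, and the reason for its difference was not tested.

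Only MIR535a passed the test at 1 h. It fell to a mean of 37.1 normalized counts from 167 at t0, a 4.51-fold difference of the means. This was 1 of 135 genes tested with limma at an adjusted p under 0.05 (0.741%), followed by MIR535b, MIR7122b and MIR167a with 0.0802 each. An unadjusted p under 0.05 was found for 17 genes (12.6%), 7 higher and 10 lower at 1 h, of which 11 were named. In 29 genes (21.5%) the 3 libraries at 1 h lay all above or all below the 3 at t0, 12 above and 17 below. Among the named genes, which the study chose on these libraries, this held for 14 of 33 (42.4%), 6 above and 8 below, and among the genes without a name for 15 of 102 (14.7%). The median log2 fold change was -0.03 over all genes tested and -0.52 over the named genes. Without 1 h replicate 1 the number of genes that passed was 18, and with library weights estimated from the data it was 19, with 17 genes in both sets. The weights put that library lowest, at 0.34, so the sets are not independent of each other. Replicate 1 was singled out for its difference in these same data. Leaving it out lowers the spread, so p-values without it here and below tend to be too small and only describe the dependence on it. Leaving out any other library left MIR535a as the only gene that passed. The number of genes with separate groups was 63 without 1 h replicate 1 and 48 without t0 replicate 1. It was 33 and 43 without 1 h replicates 2 and 3. Leaving out a library of either group can only keep or raise this number, so a rise above 29 is no result by itself.

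**Figure D1:**
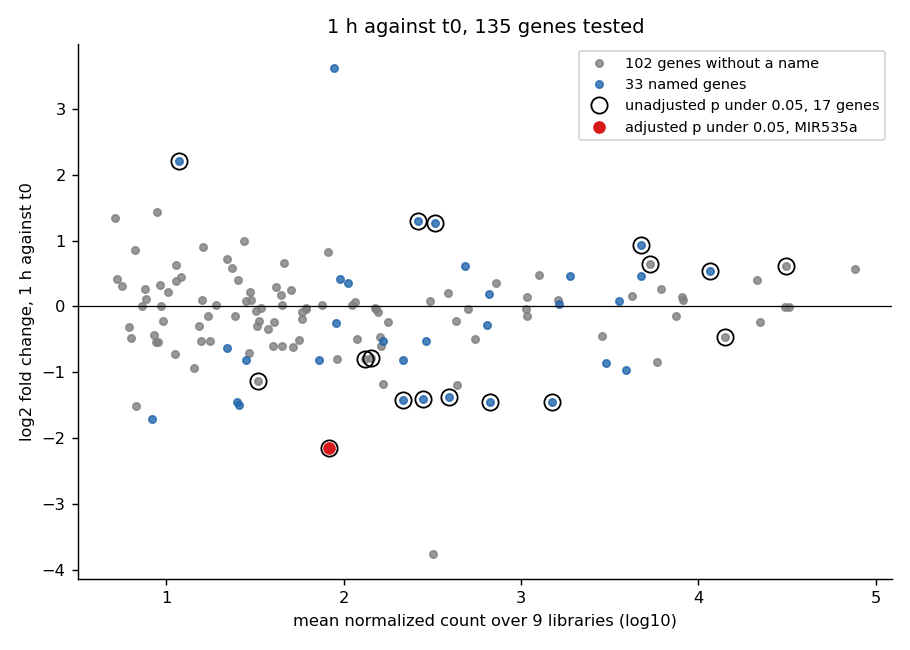
Log2 fold change at 1 h against t0, on log2(normalized count + 1), for the 135 genes tested, by their mean normalized count over 9 libraries on a log10 axis. Grey points are genes without a name, blue points named genes, black rings the 17 genes with an unadjusted p under 0.05 and the red point MIR535a, which alone passed the adjusted threshold of 0.05.

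The median of all genes moved with the scaling of the libraries, to -0.20 when all libraries had the same total and to 0.39 when they had the same upper quartile. With the same total, 2 genes passed, MIR535a and MIR535b. With the same upper quartile, 4 passed, MIR535a, MIR167a, MIR7122b and ENSRNA049996257, and 36 genes lay above t0 and 4 below in place of 12 and 17. The direction of small differences thus depended on the scale. The log2 fold changes below are those of the values as deposited, against a median of -0.03.

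Among the miRNAs that act on transcription factors of growth and phase change, the MIR535 genes were lower at 1 h in every library. The miR535 family targets SPL transcription factors in rice. MIR535a had 216, 148 and 137 normalized counts in the t0 replicates and 26.8, 46.7 and 37.7 in the 1 h replicates. The highest 1 h library was below the lowest t0 library, and 1 h replicate 1 was the lowest of all. The log2 fold change was -2.15 (SE 0.30, 95% interval -2.82 to -1.47, adjusted p = 0.00791). It passed in all 20 alternative settings, with a log2 fold change of -2.33 to -1.72 and an adjusted p of 0.00265 to 0.0499. The 1 h values rest on 23 to 34 reads per library. MIR535b had 603, 447 and 348 normalized counts at t0 and 115, 224 and 195 at 1 h, again with no overlap. Its log2 fold change of -1.40 (SE 0.30) did not pass after adjustment (adjusted p = 0.0802), and it did without 1 h replicate 1 (-1.12, adjusted p = 0.0257). At 24 h the MIR535a libraries were at 49.2, 49.7 and 31.5 and those of MIR535b at 235, 188 and 174, so that neither gene was back at its t0 level. The direct comparison of 24 h with 1 h gave 0.23 (95% interval -0.45 to 0.91) for MIR535a and 0.20 (95% interval -0.49 to 0.89) for MIR535b.

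The MIR156 genes, whose miRNA holds back the change from the juvenile to the adult phase through SPL transcription factors, pointed in opposite directions although their mature sequence is the same. MIR156h had 794, 495 and 789 normalized counts at t0 and 478, 184 and 203 at 1 h, without overlap. Its log2 fold change was -1.37 (SE 0.38, adjusted p = 0.143), and without 1 h replicate 1 it was -1.80 (adjusted p = 0.00427). MIR156g had 2.49, 0 and 1.95 normalized counts at t0, at most 4 reads per library, and 0, 114 and 164 at 1 h. Replicate 1 at 1 h was thus at 0 like t0, whereas replicates 2 and 3 held 83 and 100 reads. The log2 fold change of 3.62 had an SE of 1.83 (adjusted p = 0.354), and without 1 h replicate 1 it was 5.98 (adjusted p = 0.00569). Reads of the mature miRNA fit both genes and were divided between them by RSEM, so their sum was also taken. It was 796, 495 and 791 at t0 and 478, 298 and 367 at 1 h, with a mean of 381 ± 90.8 against 694 ± 173 (SD, n = 3, two-sided exact permutation p = 0.1). This is the smallest p that 3 libraries against 3 can give. The share of the sum assigned to MIR156g was 38.2% and 44.6% in 1 h replicates 2 and 3, 0% in 1 h replicate 1 and at most 0.313% at t0.

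MIR166e, whose miRNA targets the HD-ZIP III factors of leaf polarity and vascular development, and MIR530 showed the same division of the 1 h libraries. MIR166e was at 2835, 2830 and 2057 normalized counts at t0 and at 1999, 547 and 726 at 1 h. The replicate 1 value was just below the t0 range and the others were far below it. The log2 fold change was -1.46 (SE 0.44, adjusted p = 0.152), and -2.01 without 1 h replicate 1 (adjusted p = 0.0032). MIR530 was at 448, 435 and 289 at t0 and at 348, 114 and 72.1 at 1 h, so that replicate 1 lay inside the t0 range. Its log2 fold change was -1.42 (SE 0.51, adjusted p = 0.233), and -2.07 without that library (adjusted p = 0.00427).

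The MIR171 genes, whose miRNA targets GRAS factors that maintain meristems in Arabidopsis, were higher in all 1 h libraries than in any t0 library, MIR171a by little and MIR171c from few reads. MIR171a was at 76.5, 76.8 and 69.3 normalized counts at t0 and at 89.3, 102 and 106 at 1 h, a log2 fold change of 0.41 (SE 0.19, adjusted p = 0.354). MIR171c was at 4.98, 0 and 5.86 at t0 and at 16.2, 9.62 and 21.3 at 1 h (7 to 20 reads), a log2 fold change of 2.21 (SE 0.73, adjusted p = 0.202). The sum of both, which share a mature sequence, was 77.8 ± 3.26 at t0 and 115 ± 11.5 at 1 h (SD, n = 3, two-sided exact permutation p = 0.1). MIR396b, whose miRNA targets growth-regulating factors, was at 8701, 8465 and 7443 at t0 and at 9331, 13745 and 12933 at 1 h. Its groups did not overlap, and its log2 fold change was 0.53 (SE 0.21, adjusted p = 0.267), against 0.70 without 1 h replicate 1 (adjusted p = 0.0427).

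MIR169d, MIR159 and MIR172b complete the 12 genes assigned to this role. MIR530 was assigned to it without a target named here, and it is counted in the shares below. MIR169d, whose miRNA targets NF-YA factors, was at 58.5, 42.7 and 42.0 normalized counts at t0 and at 28.4, 20.6 and 31.1 at 1 h, without overlap (log2 fold change -0.82, SE 0.42, adjusted p = 0.354). MIR159, which acts on GAMYB-like factors, had a log2 fold change of 0.35 (SE 0.22). MIR172b, which acts on AP2 factors, was spread widely, with 202, 109 and 36.0 at 1 h around a t0 range of 88.2 to 143, and its log2 fold change of -0.26 turned to 0.17 with the same upper quartile. In all, 5 of the 12 genes were higher and 7 lower, with a median log2 fold change of -0.54. Of these, 1 passed, against 0.741% of all genes tested, and 3 lay all above and 5 all below t0 (66.7%), against 21.5% of all genes tested. The study chose these genes on the same libraries, so these shares are not independent evidence.

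**Figure D2:**
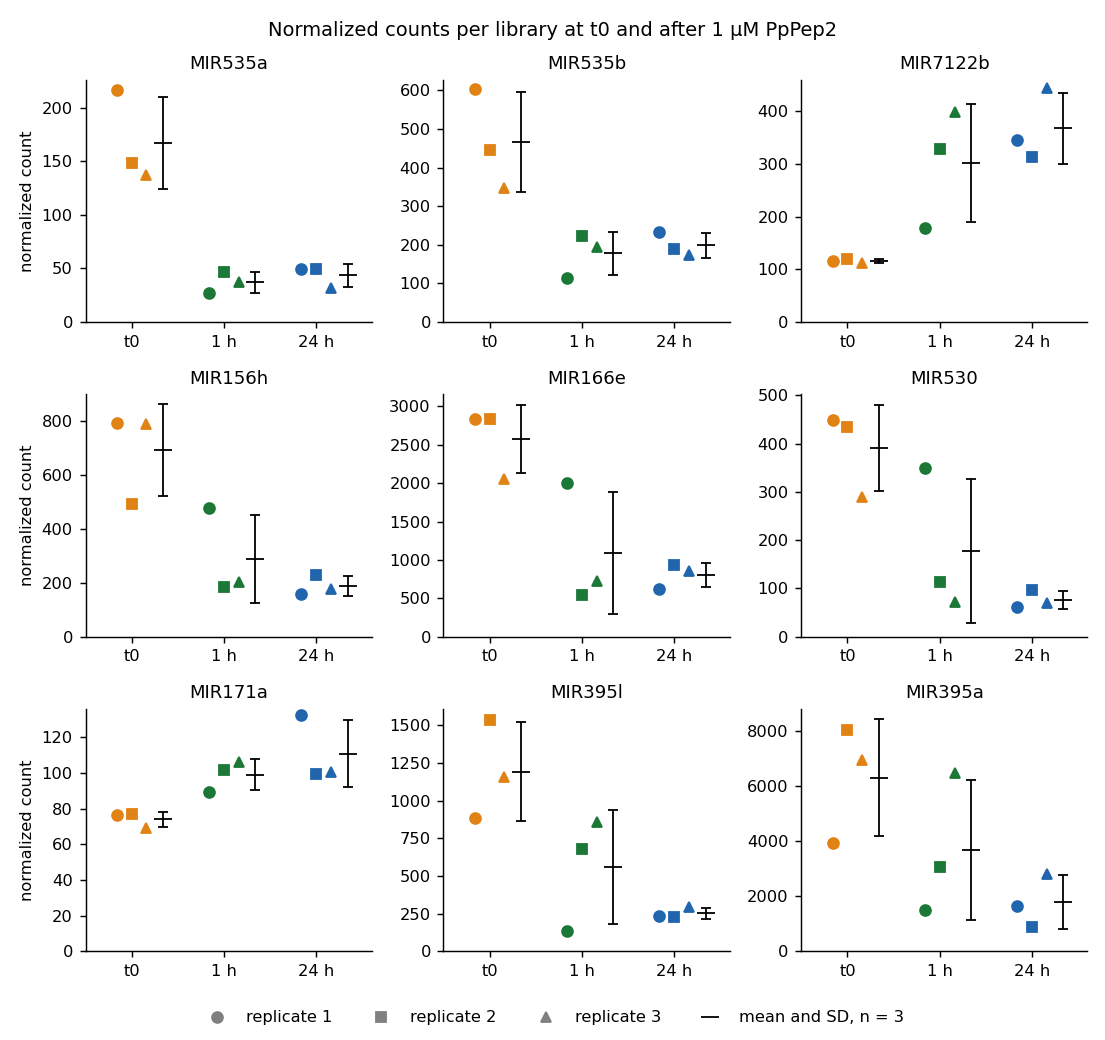
Normalized counts of 9 named genes in each library (circles, squares and triangles for replicates 1, 2 and 3) at t0 and 1 h and 24 h after PpPep2, with the mean and SD of 3 libraries in black and axes from 0. The 1 h libraries lie apart from t0 for MIR535a, MIR535b, MIR7122b, MIR156h, MIR166e, MIR171a and MIR395l, whereas 1 h replicate 1 lies within the t0 range for MIR530 and 1 h replicate 3 does so for MIR395a.

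Of the miRNAs tied to auxin, MIR167a had more counts in every 1 h library. The miR167 family targets the auxin response factors ARF6 and ARF8 in Arabidopsis. MIR167a was at 239, 188 and 172 normalized counts at t0 and at 401, 700 and 385 at 1 h. The lowest 1 h library was above the highest t0 library, and replicate 2 was highest. The means were 200 ± 35.3 and 495 ± 177 (SD, n = 3), 2.48-fold apart. The log2 fold change of 1.26 (SE 0.30, 95% interval 0.58 to 1.94) had an adjusted p of 0.0802, and it passed without 1 h replicate 1 (1.39, adjusted p = 0.0257). In the 20 alternatives its adjusted p lay between 0.0129 and 0.302, with a pass in 3. MIR390, whose miRNA starts the production of the TAS3 small RNAs that act on auxin response factors, was at 491, 356 and 403 at t0 and at 415, 264 and 218 at 1 h. Only replicate 1 was inside the t0 range, and the log2 fold change was -0.52 (SE 0.27, adjusted p = 0.362), against -0.78 without that library (adjusted p = 0.0606).

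Of the miRNAs that trigger secondary small RNAs from disease resistance and pentatricopeptide repeat genes, 5 of 6 genes were higher and 1 lower at 1 h in the mean. Over all genes tested 61 of 135 were higher. None of the 6 passed the test, and 33.3% had separate groups, against 21.5% of all genes tested. The study chose these genes on the same libraries, so these shares are not independent evidence. The miR7122 family triggers such secondary small RNAs from pentatricopeptide repeat genes in Rosaceae. MIR7122b was at 115, 119 and 111 normalized counts at t0, within a narrow range, and at 178, 329 and 398 at 1 h. The log2 fold change was 1.30 (SE 0.30, 95% interval 0.62 to 1.98, adjusted p = 0.0802). MIR7122a, with more counts, was at 2517, 2423 and 2577 at t0 and at 3167, 5646 and 6205 at 1 h. Its log2 fold change was 0.94 (SE 0.26, 95% interval 0.34 to 1.54, adjusted p = 0.143). In both genes all 1 h libraries lay above t0 and replicate 1 was the lowest. Without it MIR7122b came to 1.64 (adjusted p = 0.0032) and MIR7122a to 1.24 (adjusted p = 0.00427), so that both passed. Their mature 5p sequences differ at position 20 only, so reads that stop short of that base cannot be assigned to one of them. The summed counts were 2621 ± 73.5 at t0 and 5308 ± 1728 at 1 h (SD, n = 3, two-sided exact permutation p = 0.1).

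The named MIR482 genes, whose miRNAs target resistance genes of the NLR class, were split by gene and by library. MIR482c was at 4869, 3959 and 4390 normalized counts at t0 and at 4652, 1940 and 1569 at 1 h. MIR482f was at 3215, 3527 and 2904 at t0 and at 3098, 5309 and 5226 at 1 h. In both genes replicate 1 remained within the t0 range while the other 1 h libraries left it, downward in MIR482c and upward in MIR482f. The log2 fold changes were -0.86 for MIR482c (SE 0.39, adjusted p = 0.354) and 0.46 for MIR482f (SE 0.23, adjusted p = 0.354). Both passed without replicate 1, at -1.33 (adjusted p = 0.00933) and 0.72 (adjusted p = 0.0245). MIR482a and MIR482e had the pattern of MIR482f, with log2 fold changes of 0.62 and 0.19 and replicate 1 inside the t0 range, and neither passed in any setting. MIR482e left the t0 range by very little, with 681.82 and 651.97 in 1 h replicates 2 and 3 against 651.74 in t0 replicate 1.

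None of the miRNAs of the silencing machinery passed at 1 h with all libraries weighted equally. MIR162, whose miRNA targets DICER-LIKE1, was at 3039, 2992 and 2672 normalized counts at t0 and at 2589, 3049 and 3664 at 1 h (log2 fold change 0.08, SE 0.18), a sign that turned to -0.08 with the same total. MIR168, whose miRNA targets ARGONAUTE1, was at 1011, 594 and 759 at t0 and at 840, 543 and 560 at 1 h (log2 fold change -0.28, SE 0.28), and 0.16 with the same upper quartile. MIR403, whose miRNA targets ARGONAUTE2, was at 1126, 1476 and 1319 at t0 and at 1401, 1944 and 2125 at 1 h (log2 fold change 0.47, SE 0.21, adjusted p = 0.354). MIR403 was at 0.65 without 1 h replicate 1 (adjusted p = 0.0605) and passed with library weights (0.61, adjusted p = 0.0382). None of the 3 had separate groups, against 21.5% of all genes tested, and 3 genes are too few to tell these shares apart. MIR8127, for which no role was assigned, was at 1745 ± 82.1 at t0 and 1803 ± 286 at 1 h (SD, n = 3), and its log2 fold change was 0.04 (SE 0.16).

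All 9 MIR395 genes named by the study had a negative log2 fold change at 1 h, between -1.71 and -0.53 (median -0.96). None passed the test. Over all genes tested 74 of 135 were lower. The study chose these 9 for differences in the same libraries, so their common sign is not independent evidence. It counts further annotated MIR395 members, which have no name here. The miR395 family targets ATP sulfurylases and a sulfate transporter and is known in Arabidopsis for its rise under sulfur starvation. MIR395l was at 884, 1539 and 1156 normalized counts at t0 and at 132, 682 and 858 at 1 h. Its 1 h libraries lay below t0, replicate 3 only just, and replicate 1 was the lowest by far. Its log2 fold change of -1.44 (SE 0.62, adjusted p = 0.352) was -0.60 without that library (adjusted p = 0.193). MIR395a, which had the most counts of the 9, was at 3956, 8035 and 6962 at t0 and at 1507, 3059 and 6474 at 1 h. Its replicate 3 lay inside the t0 range, and the log2 fold change was -0.96 (SE 0.58, adjusted p = 0.421), against -0.44 without 1 h replicate 1 (adjusted p = 0.665). MIR395c, MIR395i and MIR395l were all below t0, and the other 6 of the 9 overlapped it. These 3 are 33.3% of the 9 named genes, against 21.5% of all genes tested with separate groups. The choice of the 9 by the study applies to this share too. Replicate 1 was the lowest 1 h library in 7 of the 9 genes and replicate 3 in 2. For MIR395k, MIR395m and MIR395n it was the only 1 h library outside the t0 range, and the log2 fold change of MIR395n turned from -0.53 to 0.17 without it. The counts summed over the 8 genes that share a mature sequence were 1424, 2711 and 2072 at t0 and 368, 1298 and 1648 at 1 h, which overlap (two-sided exact permutation p = 0.2). Their means were 2069 ± 643 and 1104 ± 662 (SD, n = 3). The 8 genes share a product, so their common sign is not 8 separate observations.

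Among the 102 genes without a name none passed, and 6 had an unadjusted limma p under 0.05. Over all genes tested this held for 17 of 135 (12.6%), a larger share, so the 6 are no excess and are described by their values only. ENSRNA049996257 was at 3700, 4244 and 3543 normalized counts at t0 and at 4373, 7000 and 6844 at 1 h, all above t0 (log2 fold change 0.64, SE 0.20, adjusted p = 0.181). ENSRNA049997141, among the genes with the highest counts, was at 24221, 23188 and 20298 at t0 and at 24409, 39019 and 43331 at 1 h (log2 fold change 0.62, SE 0.21, adjusted p = 0.225). In both, replicate 1 was next to the t0 range, and when it was left out both passed, at 0.86 and 0.87 on the log2 scale with an adjusted p of 0.00427 each. ENSRNA050004180 was at 185, 233 and 204 at t0 and at 182, 93.5 and 102 at 1 h (log2 fold change -0.78, SE 0.30, adjusted p = 0.255), with replicate 1 again nearest to t0, and it passed without that library (-1.07, adjusted p = 0.0245). ENSRNA049996020 differed from these, with 96.6, 77.0 and 165 at 1 h below 183 to 191 at t0 and replicate 3 nearest to t0 (log2 fold change -0.80, SE 0.29). The gene with the most counts, ENSRNA049996936, was at 45012, 68724 and 41316 at t0 and at 39986, 105560 and 98761 at 1 h, so that its groups overlapped through replicate 1 (log2 fold change 0.57, SE 0.36, adjusted p = 0.421). It passed without that library (1.02, adjusted p = 0.0145) and with library weights (1.02, adjusted p = 0.0238). ENSRNA049997204, of the next highest mean, was at 28071 to 38500 at t0 and 30202 to 33747 at 1 h, a log2 fold change of -0.01 (SE 0.14) that turned to 0.43 with the same upper quartile.

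In the median, replicates at 1 h agreed less than those of the other groups. The median SD of a gene on the log2 scale was 0.41 at 1 h, 0.34 at t0 and 0.32 at 24 h. A larger SD at 1 h was found in 85 of 135 genes against t0 and in only 75 of 135 against 24 h. Replicates 2 and 3 at 1 h differed from each other by a median of 0.27, and replicate 1 differed from them by 0.57 and 0.58. In 25 of 135 genes (18.5%) replicate 1 alone was inside the t0 range while the others were outside on one side. The same held for replicate 2 alone in 3 genes (2.22%) and for replicate 3 alone in 10 (7.41%). Among the named genes replicate 1 alone stayed inside in 10 of 33, which were MIR156g, MIR159, MIR168, MIR390, MIR403, MIR482a, MIR482c, MIR482e, MIR482f and MIR530. Of all genes tested, 43 were nearer to the 24 h mean than to the t0 mean in replicate 1, against 83 in replicate 2 and 75 in replicate 3. In contrast, MIR535a, MIR535b and 7 of the 9 MIR395 genes were furthest from t0 in replicate 1. The named genes therefore did not order the 1 h libraries in the same way.

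**Figure D3:**
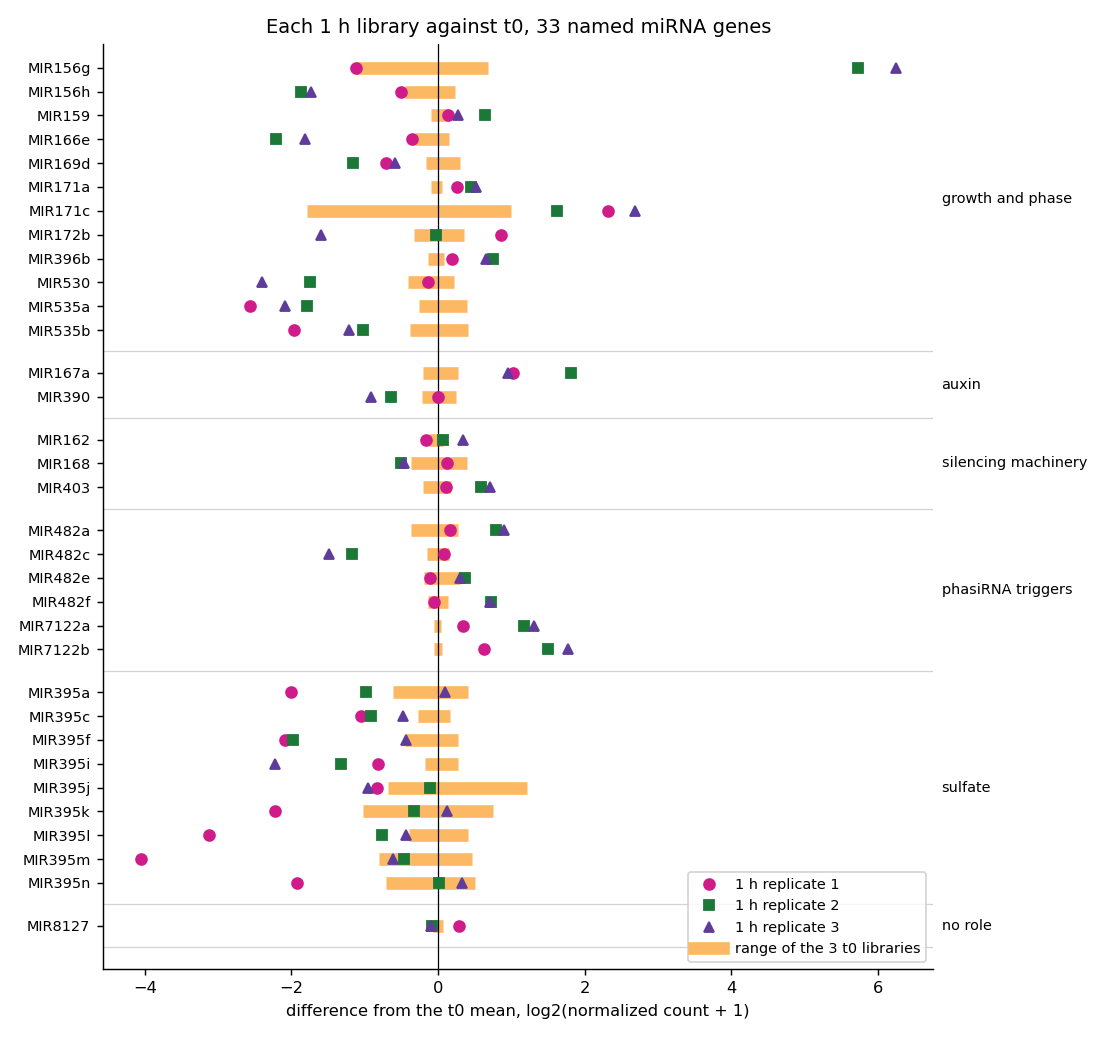
Difference of each 1 h library from the t0 mean on log2(normalized count + 1) for the 33 named genes, ordered by role, with the range of the t0 libraries as an orange bar. Replicate 1 (circles) alone sits on the bar for 10 genes, MIR482c and MIR530 among them, and furthest to the left for MIR535a, MIR535b and most MIR395 genes.

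**Figure D4:**
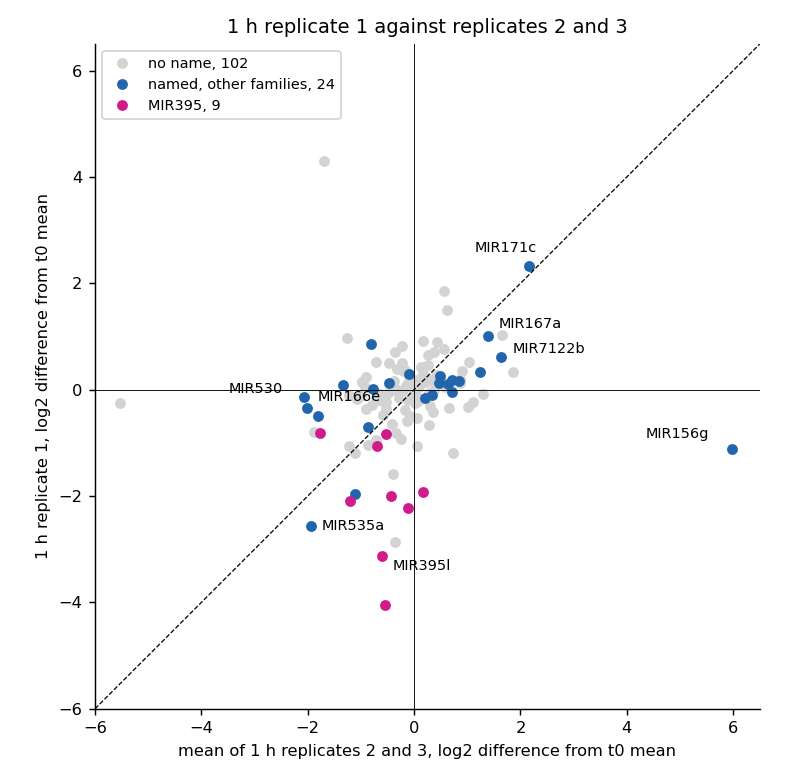
Log2 difference from the t0 mean in 1 h replicate 1 against the mean of 1 h replicates 2 and 3 for the 135 genes tested. The dashed line marks equal differences. MIR171c, MIR167a and MIR535a lie near it, MIR156g, MIR166e and MIR530 lie near the horizontal axis or opposite to it, and the MIR395 genes (pink) lie mostly below the line.

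Few genes met a rule for differences seen at 1 h and not at 24 h. The rule rests on overlap with t0 at 24 h, which does not show that a difference was gone. An early only gene was taken as one with an unadjusted p under 0.05 at 1 h, 1 h libraries all on one side of t0, and 24 h libraries that overlap t0. It held for 3 genes with all libraries, and the members changed with the processing. Without t0 replicate 1 none of the 3 was left and ENSRNA049996993 and ENSRNA050003595 took their place, while ENSRNA049996862 was kept in every other setting. MIR167a was also lost without 24 h replicate 3 and with the same upper quartile. ENSRNA049997126 was also lost under both other scalings, with only 6 libraries and without t0 replicate 2, 1 h replicate 2 or 1 h replicate 3. Without 1 h replicate 1 the 3 were kept among 9 genes. MIR167a was higher, with 372, 261 and 219 normalized counts at 24 h after 385 to 700 at 1 h, and 2 of its 3 libraries at 24 h were still above the t0 range of 172 to 239. Its log2 fold change against t0 was 1.26 at 1 h and 0.49 (SE 0.30) at 24 h. The direct comparison of 24 h with 1 h gave -0.78 (SE 0.30, 95% interval -1.46 to -0.10), with an unadjusted p of 0.0294 and an adjusted p of 0.336. ENSRNA049996862 was lower and even between replicates at 1 h, with 19.5, 22.0 and 19.7 after 27.4, 62.6 and 56.6 at t0, and 31.2, 34.0 and 21.4 at 24 h. Its 1 h values rest on 12 to 24 reads per library, and the difference between 24 h and 1 h was 0.46 (95% interval -0.31 to 1.23). Against t0 the log2 fold change of ENSRNA049996862 was -1.14 at 1 h and still -0.68 (SE 0.34) at 24 h. ENSRNA049997126 was lower by less, with 12728, 11150 and 11599 at 1 h against 13868 to 20596 at t0 and 13395 to 15031 at 24 h. Its log2 fold change against t0 was -0.47 at 1 h and -0.20 (SE 0.17) at 24 h, and 24 h differed from 1 h by 0.27 (95% interval -0.12 to 0.65). None of the 3 was called at 1 h or between the time points, so that they are candidates by overlap only.

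**Figure D5:**
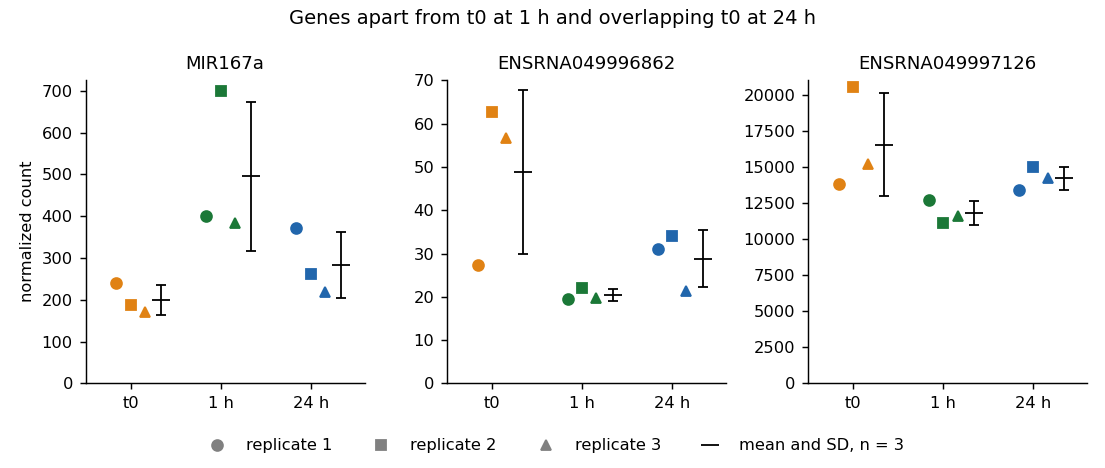
Normalized counts per library (circles, squares and triangles for replicates 1, 2 and 3) at t0, 1 h and 24 h for the 3 early only genes, with the mean and SD of 3 libraries in black and axes from 0. The 1 h libraries lie above t0 for MIR167a and below t0 for ENSRNA049996862 and ENSRNA049997126, and at 24 h each gene overlaps its t0 range.

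Between 24 h and 1 h 0 of 135 genes passed with limma (0%), the smallest adjusted p being 0.307, while 18 had an unadjusted p under 0.05. MIR390 was at 415, 264 and 218 normalized counts at 1 h and at 126, 175 and 156 at 24 h (log2 fold change -0.93, unadjusted p = 0.00812). MIR169d was at 20.6 to 31.1 at 1 h and at 4.92, 7.84 and 17.6 at 24 h (-1.46, unadjusted p = 0.00683). MIR162 was higher in each 24 h library than in any at 1 h, with 4820, 4032 and 5230 (0.60, unadjusted p = 0.00911). Against t0, the named MIR395 genes had a median log2 fold change of -0.96 at 1 h and -3.35 at 24 h. The named MIR7122 genes were at 1.12 and 1.53 and the named MIR535 genes at -1.77 and -1.56. These pairs of values share their t0 libraries and are given side by side only. For single genes the call between the time points rested on single libraries, since MIR395l passed without 1 h replicate 1, MIR395j without 24 h replicate 1, and MIR169d and MIR395i without 24 h replicate 3.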

How the data were processed

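Leaf small RNA libraries of 3 groups (t0, 1 h and 24 h) with 3 replicates each were analysed. Per the paper and labels, the authors trimmed reads with Trim Galore 0.6.6, mapped them with STAR 2.5.3a to Prunus_persica_NCBIv2.38, quantified annotated pre_miRNA genes with RSEM 1.3.0 and scaled them with DESeq2 1.26.0. The values deposited by the authors are a signal, counts scaled between libraries, in which trimming, read assignment and scaling are already contained. They are not raw counts, so no count test was run. The low values were whole multiples of 1 step per library (within 0.1 of a read), which gave the depth.

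Changes were tested with limma 3.58.1 (R 4.3.3, trend) on log2(normalized count + 1), which understates changes of genes with low counts, in 1 fit to 9 libraries over 135 genes with a mean of at least 5. P-values were adjusted by Benjamini-Hochberg, with a threshold of 0.05. Sums were compared by exact permutation tests. On simulated data of 135 genes with 27 changed by 2 on the log2 scale, 94.3% were recovered with 2.64% false calls for 1 h against t0. The simulation gave all genes the same spread beyond counting error and set no library apart from its group. Its rates therefore do not carry over to these libraries or to smaller changes. In the data MIR171c, MIR156g and ENSRNA049996337 differed by more than 2 and did not pass. Tables used Python 3.11.15, numpy, pandas and matplotlib.

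The genes named are the 33 named by the study, other genes with an unadjusted p under 0.05 at 1 h, early only genes and the 3 with the highest mean. Members and lists were chosen with earlier results of these data known. The labels do not say more of how replicates were grown, so p-values measure the spread between these pools. Alternatives were other added constants, minimum means and detection rules, other scalings, no trend, library weights, only 6 libraries, a replicate block, a minimum fold, shared sequences summed and each library left out. Of 210 identifiers, 0 matched the reference annotation used here, so no genome positions are given. Leaf cell types could not be checked, since the table lists pre_miRNA genes only.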

Additional observations from a re-analysis of the deposited data

How the results depend on the processing

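The number of genes that passed at 1 h was 1 as reported, 2 with the same total, 4 with the same upper quartile and 19 with library weights, and 1 to 18 with single libraries left out, 18 being the number without 1 h replicate 1. Genes with separate groups numbered 29 to 63 and early only genes 2 to 9 with a library left out, against 29 and 3 with all. The number with separate groups cannot fall when a library is left out, so its rise does not by itself measure dependence on that library. Early only genes were 5 with the same upper quartile. The count between 24 h and 1 h was 0 to 2 with a library left out. Signs turned for MIR162 (-0.0838 with the same total; -0.0439 to 0.21 with a library left out), MIR8127 (-0.13 with the same total, -0.0292 with weights; -0.0904 to 0.10), MIR172b (0.17 with the same upper quartile; -0.82 to 0.41), MIR168 (0.16 with the same upper quartile), MIR395n (0.0036 with weights; -0.96 to 0.17) and ENSRNA049997204 (0.43 with the same upper quartile; -0.10 to 0.12). None of these had passed in any setting. The replicate number as a block gave 1 gene that passed and 18 with an unadjusted p under 0.05, against 17 without it, and changed no call. Differences from the group mean correlated at 0.01, 0.17 and 0.16 between t0 and 1 h libraries of the same number, against -0.24 to 0.05 for different numbers. Between 1 h and 24 h the same numbers gave -0.41, -0.08 and 0.10, against -0.37 to 0.39 for different numbers. With 3 libraries per group these values cannot decide whether the numbers pair the libraries. The cause of the dependence on 1 h replicate 1 was not tested. Depth limits the genes with few reads, such as MIR171c, MIR156g and MIR395m, and a gene that did not pass is not shown to be unchanged.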

Other observations

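A few genes outside the rule for names are given here because of their values, and were chosen after these were seen. ENSRNA049996337 was at 723, 435 and 492 normalized counts at t0 and at 449, 136 and 0 at 1 h, so that the 1 h libraries ran from the t0 range to no reads, and its log2 fold change of -3.77 had an SE of 1.86. ENSRNA049996971 was at 28.0, 11.4 and 24.4 at t0, at 74.7, 28.9 and 31.1 at 1 h and at 14.8, 23.5 and 11.3 at 24 h. All its 1 h libraries were above all the others, with a log2 fold change of 1.00 (SE 0.48) against t0 and an unadjusted p of 0.0682, which kept it out of the early only genes, and of -1.31 from 1 h to 24 h (unadjusted p = 0.0238). ENSRNA049996536 and ENSRNA049996542 had identical values in 8 of 9 libraries, so that they cannot be taken as separate observations.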
